A study of Homo sapiens with 48 samples.

Results

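Cytokines and chemokines are secreted proteins by which cells signal to each other, and their receptors pass the signal into the cell that carries them. The 47 genes described here are 13 chemokines, 4 chemokine receptors, the interleukin-1 and interleukin-18 family, the gp130 cytokines with their receptors, the interferon receptors and other cytokines and cytokine receptors. They were chosen by name, out of 18849 named genes on the array, as every probe whose platform symbol or older alias is one of the 47. All 47 had a probe, 76 probes in all, and 17 genes had more than 1. Where a gene has several probes they are numbered by brightness, and an unnumbered value is that of the brightest.

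RNA from 2 human cell lines was hybridised to Illumina bead arrays: Huh7, grown from a liver tumour, and THP1, a monocytic leukaemia line. The INTG cells received an siRNA against the C5/TRAF1 intergenic transcript, and the NC1 and NC2 cells received Silencer Select Negative Control 1 or 2 (lipid transfection with Lipofectamine, 300000 cells and 50 pmol siRNA per well, collected after 2 days). No untransfected cells are among these samples, and only 1 siRNA against the transcript was used. Each line had 4 experiments from separate culture passages with 2 wells per siRNA, so that each of the 6 groups has 8 arrays and n = 4 experiments. The p-values for siRNAs measure how the siRNA differences vary between passages of 1 tumour line each, with the passages' own levels taken out. Those between lines measure the spread of levels between passages. Since the RNA is from bulk wells, fewer expressing cells and less RNA per cell cannot be told apart.

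Chemokines draw white blood cells along a gradient through receptors such as CCR1, CCR2, CXCR4 and CX3CR1. The ELR chemokines CXCL1, CXCL2, CXCL3, CXCL5, CXCL6 and CXCL8 attract neutrophils, and hepatocytes and monocytes can both make them when NF-kB is active. Interleukin-1 acts through IL1R1 with IL1RAP and is blocked by IL1RN, while the gp130 cytokines IL6, LIF and OSM act through IL6ST on the JAK and STAT kinases and factors that also shape the acute phase response of the liver.

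The ELR chemokines lie together on chromosome 4, and their upstream sequences are shown because 2 of them passed the test with INTG in Huh7 while their tested neighbour CXCL5 did not. The bases come from RefSeq (GRCh38.p14), and 37 of the 47 genes matched its promoter table. CXCL16, IL17RA, IL18, LIF, IFNAR2, CSF1, OSM, CCL4, CCL2 and CCL5 did not match. The 250 bases before the start site are given 5′ to 3′ on the gene's own strand, with capitals marking an NF-kB-like motif, GGAATTTCC, which was searched on both strands. CXCL6 (chr4:73836428-73836677, plus strand) and CXCL8 (chr4:73740319-73740568, plus strand) are the 2 that passed, and CXCL5 (chr4:73998678-73998927, minus strand) is the neighbour.
CXCL6: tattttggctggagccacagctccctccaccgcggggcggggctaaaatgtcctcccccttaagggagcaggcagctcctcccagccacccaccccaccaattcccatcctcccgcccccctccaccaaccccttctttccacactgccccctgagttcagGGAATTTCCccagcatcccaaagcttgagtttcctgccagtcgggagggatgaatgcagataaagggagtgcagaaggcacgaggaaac
CXCL8: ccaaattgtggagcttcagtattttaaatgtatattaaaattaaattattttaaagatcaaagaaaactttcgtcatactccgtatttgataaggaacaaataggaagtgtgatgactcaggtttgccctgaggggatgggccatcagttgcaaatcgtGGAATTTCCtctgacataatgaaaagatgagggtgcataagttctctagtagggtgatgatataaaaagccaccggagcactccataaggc
CXCL5: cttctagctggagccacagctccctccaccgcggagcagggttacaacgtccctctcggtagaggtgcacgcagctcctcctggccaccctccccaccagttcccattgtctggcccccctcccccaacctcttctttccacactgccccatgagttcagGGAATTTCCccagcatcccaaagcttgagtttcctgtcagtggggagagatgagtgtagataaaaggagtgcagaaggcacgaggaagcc
The motif began 89 bases before the start of CXCL6, 91 before CXCL8 and 90 before CXCL5. Aligned end to end, the CXCL6 and CXCL5 windows were 85.3% identical (214 of 251 aligned columns), whereas CXCL6 and CXCL8 were 46.7% identical. The same letters stood before CXCL1, CXCL2 and CXCL3, which were too dim to test, and on the other strand before CXCL10, which was tested. These are shown with 20 bases on either side.
CXCL1: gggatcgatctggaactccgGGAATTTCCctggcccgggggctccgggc
CXCL2: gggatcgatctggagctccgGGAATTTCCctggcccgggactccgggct
CXCL3: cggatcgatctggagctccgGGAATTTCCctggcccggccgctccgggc
CXCL10: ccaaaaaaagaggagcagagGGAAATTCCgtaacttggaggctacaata
The windows lie at chr4:73869295-73869343 (plus strand), chr4:74099244-74099292, chr4:74038739-74038787 and chr4:76023645-76023693 (minus strand). Of all 35116 promoters in the table, 0.413% held the motif in these 250 bases. The 37 matched genes had 57 promoters there, of which 7 held it, those of the 6 ELR chemokines and CXCL10. Some windows of these neighbouring genes are closely alike, so their matches are not independent, and the share was not tested. Only these exact letters were searched, so genes without a match may still hold other NF-kB-like sequences. An AP-1-like motif, TGANTCA, which reads the same on both strands, was in 6.57% of all promoters and in 7 of the 57 member promoters. These belong to CXCL8, IL1A, IL1RN, IL10, IL10RA and CCR2, and the windows of CXCL6 and CXCL5 did not hold it. A match of letters is a description of these windows and does not show that a factor binds there.

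The lines differed in which of these genes they expressed. Testing within a line required detection (p-value under 0.01) on 8 or more of its 24 arrays, which 24 genes (33 probes) met in Huh7 and 26 genes (36 probes) in THP1. CXCL8, CXCL5, CXCL6, CXCL10, CCL20, OSMR and IL32 met it only in Huh7. CCL3, CCL5, IL1B, OSM, IL3RA, CCR1, CCR2, CXCR4 and CX3CR1 met it only in THP1, and 17 genes did so in both. Another 14 genes met it in neither line. Of these CXCL1, CXCL3, CCL2, CCL4, IL1A, IL1R1, IL6, LIF, LIFR, TGFB1 and IL2RG were detected on none of the 48 arrays, CXCL2 on 1 Huh7 array, CSF1 on 7 Huh7 arrays and IL10RA on 7 THP1 arrays. Not detected means not above the array's negative controls, which is no proof that the RNA is absent.

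**Figure D1:**
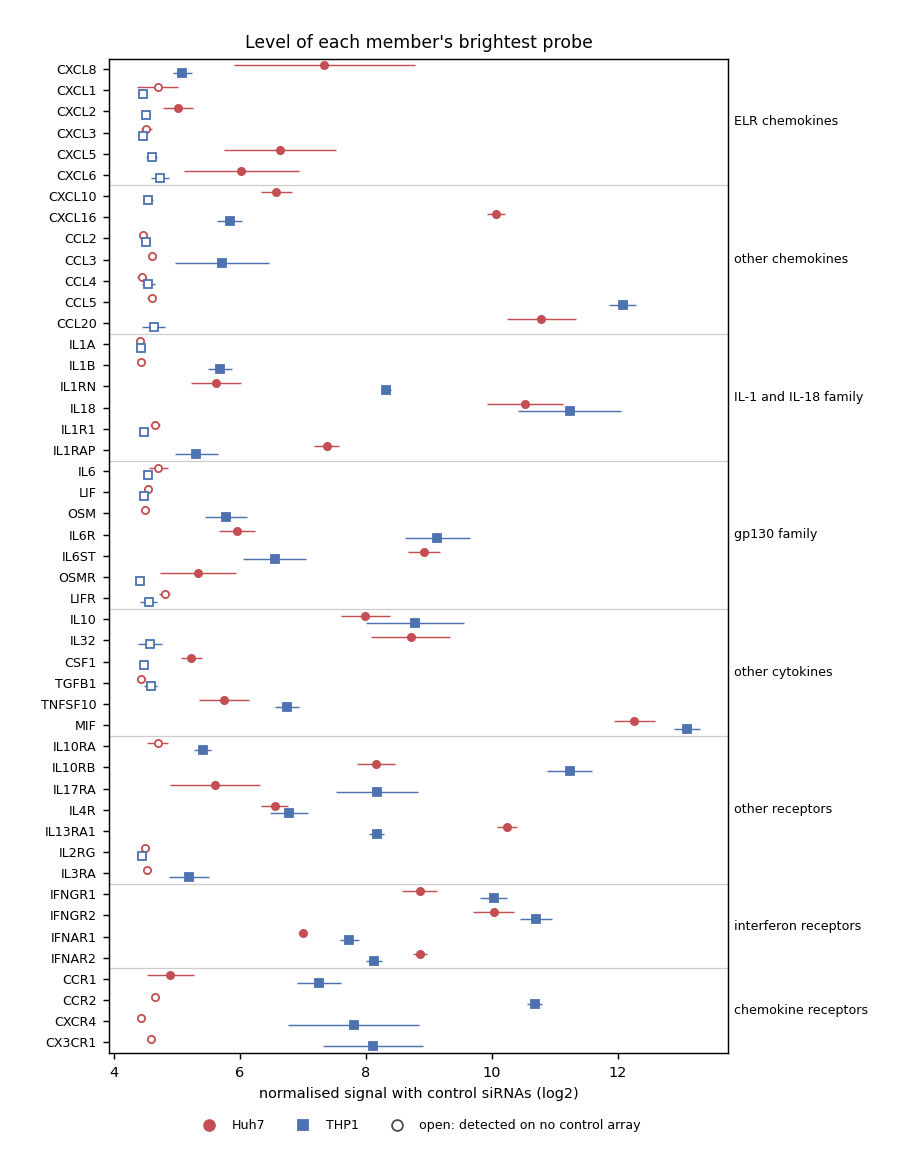
Level of each gene's brightest probe with the control siRNAs on the log2 scale (horizontal axis), as the mean and SD over 4 experiments, for Huh7 (circles) and THP1 (squares), ordered by role. Open symbols were detected on no control array. CCL20, CXCL16 and IL32 stand to the right in Huh7, and CCL5, the 4 chemokine receptors and IL10RB stand to the right in THP1.

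Levels are normalised log2 signals, whose median over all probes was 4.61 in Huh7 and 4.62 in THP1. Among the ligands, the Th17-cell attractant CCL20 averaged 10.78 ± 0.54 in Huh7 and 4.63 ± 0.18 in THP1 with the control siRNAs (SD, n = 4 each). It was detected on 0 of 16 THP1 control arrays, so it was at least 34.9-fold higher in Huh7. IL32 was at least 8.28-fold higher in Huh7, CXCL5 at least 1.98-fold, CXCL10 at least 1.89-fold and CXCL6 at least 1.29-fold. For CXCL8 the second probe gave at least 2.04-fold. The CXCL6 bound rests on experiment 3, without which its Huh7 mean of 5.57 is below the floor of 5.66, and with the slide as a random block the line calls of CXCL6 and of both CXCL8 probes were lost. Each bound sets the mean of the brighter line against, on each array of the dimmer line, the higher of the probe's signal there and the lowest signal of any detected probe. The membrane-bound chemokine CXCL16 was measured in both lines, at 10.06 ± 0.15 in Huh7 and 5.83 ± 0.20 in THP1 (18.7-fold, limma, Benjamini-Hochberg adjusted p = 7.77e-09). CCL5, an attractant of T cells and monocytes, went the other way, at 4.60 ± 0.07 in Huh7 and 12.07 ± 0.21 in THP1, at least 96.0-fold higher in THP1.

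The 4 chemokine receptors passed the detection filter only in THP1. CCR2, the receptor of CCL2, read 4.64 ± 0.04 in Huh7 and 10.67 ± 0.12 in THP1, at least 36.4-fold higher in THP1. Of its 8 probes 5 were tested and bounded the difference at 4.17-fold to 36.4-fold, and the other 3 were not detected. CX3CR1 was at least 6.16-fold and CXCR4 at least 4.98-fold higher in THP1, and CCR1 averaged 4.89 ± 0.37 in Huh7 and 7.25 ± 0.35 in THP1. The receptor chains of interleukin-6 were split between the lines. The ligand-binding chain IL6R read 5.95 ± 0.29 in Huh7 and 9.13 ± 0.51 in THP1 (log2 difference -3.18, SE 0.257, adjusted p = 3.82e-06). The signalling chain IL6ST (gp130) read 8.92 ± 0.25 in Huh7 and 6.55 ± 0.50 in THP1 (2.37, SE 0.246, adjusted p = 2.29e-05), but its second probe gave 0.47 (SE 0.446, adjusted p = 0.387), so the IL6ST probes disagree.

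IL10RB (log2 difference -3.07) and IL1RN, the natural blocker of the interleukin-1 receptor (-2.70), were lower in Huh7. IL1RAP (2.07) and IL13RA1, a chain of the interleukin-13 receptor (2.07), were higher in Huh7. The type II interferon receptor chains IFNGR1 (-1.17, adjusted p = 0.00025) and IFNGR2 (-0.68, adjusted p = 0.0124) and the type I chain IFNAR1 (-0.74, adjusted p = 0.000485) were lower in Huh7. The other type I chain, IFNAR2, was higher in Huh7 on its first probe (0.72, adjusted p = 0.000574). The second IFNAR2 probe read 7.02 ± 1.09 in Huh7 and 6.49 ± 1.23 in THP1 and did not pass. MIF, a cytokine that holds macrophages in place (-0.83, adjusted p = 0.0033), TNFSF10 (5.74 in Huh7 and 6.74 in THP1, adjusted p = 0.00195) and the interleukin-17 receptor IL17RA (-2.58, adjusted p = 0.000375) were lower in Huh7. IL1B, OSM and CCL3 were detected on no Huh7 control array and were at least 1.14-fold, 1.22-fold and 1.17-fold higher in THP1. The CCL3 bound rests on experiment 4, without which its THP1 mean of 5.35 is below the floor of 5.49, and its call was lost with the slide as a random block, median scaling or no detection filter. IL3RA was detected on 0 of 24 Huh7 arrays and 5 of 16 THP1 control arrays, with a THP1 mean of 5.19 under that floor, so no fold is given. IL18 (-0.71, SE 0.423, adjusted p = 0.175), IL4R (-0.23, SE 0.18, adjusted p = 0.295) and IL10 (-0.79, SE 0.364, adjusted p = 0.0836) did not pass the test between lines. Their intervals still allow sizeable differences, for IL18 from -1.66 to 0.25. The 2 IL10 probes disagreed, since the first was detected on 24 Huh7 and 23 THP1 arrays and the second on none.

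In all, 16 of 49 member probes were higher in Huh7 and 27 of 49 lower, against 30.6% higher and 31.9% lower among all 15860 probes tested between lines. A probe expressed in 1 line alone had to differ to enter this fit. The lines lay on different slides, so line and slide cannot be told apart. Of the other genes of these pathways, 3 of 13 tested JAK, STAT and SOCS genes were higher and 6 lower in Huh7, 2 of 12 interleukin-1 signalling genes were higher and 7 lower, 3 of 13 further receptors were higher and 10 lower, and 4 of 7 further cytokines were higher and 3 lower.

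The second comparison asked what the INTG siRNA did to these genes in Huh7. The neutrophil attractants CXCL6 and CXCL8 rose, along with the receptor chains IL1RAP, IL10RB and IFNGR1 and the cytokine IL18. CXCL16, IL1RN, the interferon receptor chains IFNAR1 and IFNGR2 and the death ligand TNFSF10 (TRAIL) fell. Against the mean of NC1 and NC2, 9 of 33 member probes passed upward and 5 of 33 downward, from 11 genes, whereas 10.3% of all 13878 probes passed upward and 12% downward. The upward count includes CXCL6 probe 2, which passed the detection filter through its INTG arrays. The downward count includes IL1RN, which passed it through the controls. The member counts were not tested against the shares of all probes. Normalised to equal medians in place of equal distributions, the member split was 13 upward and 4 downward, and 27.3% of all probes passed in either direction, against 22.3% before. The median log2 change was 0.11 over the member probes and 0.01 over all probes tested.

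**Figure D2:**
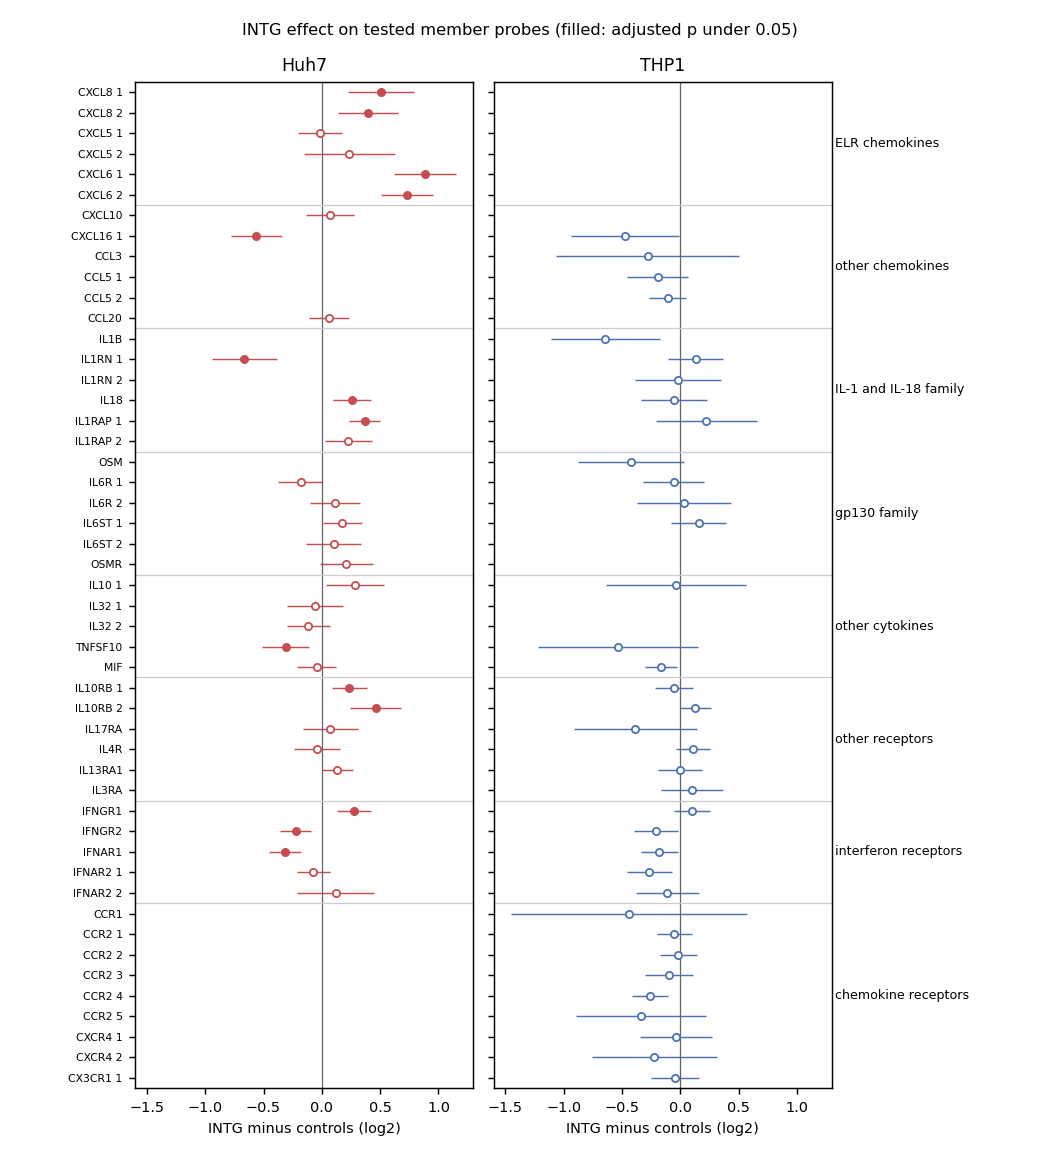
INTG minus control mean on the log2 scale (horizontal axes) with 95% intervals from limma for each tested probe, by role, in Huh7 (left) and THP1 (right). Filled points passed an adjusted p of 0.05. In Huh7, 14 of 33 probes are filled, with CXCL6 farthest to the right and IL1RN farthest to the left, and in THP1 0 of 36 are filled.

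CXCL6 showed the largest change of the set. Its log2 signal in experiments 1 to 4 was 6.46, 6.28, 8.40 and 6.49 with INTG, against 5.44, 5.39, 7.27 and 5.42 with NC1 and 6.14, 5.83, 7.45 and 5.24 with NC2. INTG lay above both controls in each of the 4 experiments, although the experiments themselves differed by more than the siRNAs did. The difference was 0.88 (SE 0.12, 1.85-fold, adjusted p = 0.000505). This probe was detected on 8 of 8 INTG, 4 of 8 NC1 and 7 of 8 NC2 arrays, so its size, above all against NC1, is uncertain. The other CXCL6 probe rose by 0.73 (SE 0.102, adjusted p = 0.000597) and was also above both controls in all 4 experiments. It was detected on 6 of 8 INTG arrays, 0 of 8 NC1 arrays and 3 of 8 NC2 arrays, so that it entered the test through the INTG arrays and its size is uncertain. CXCL6 was called singly against NC1 (1.02, adjusted p = 0.000645) and against NC2 (0.74, adjusted p = 0.00508).

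CXCL8 (interleukin-8) read 8.06, 8.10, 9.26 and 5.96 with INTG, against 7.92, 7.55, 8.55 and 5.23 with NC1 and 8.12, 7.87, 8.22 and 5.20 with NC2. INTG was above both controls in experiments 2, 3 and 4 and between them in experiment 1. The mean difference was 0.51 (SE 0.128, 1.42-fold, adjusted p = 0.0157), and the second probe gave 0.39 (SE 0.117, adjusted p = 0.0319). In the discovery phase, experiments 1 and 2, CXCL8 did not pass, and neither did it without experiment 2, 3 or 4. CXCL5 read 6.66, 7.26, 7.37 and 5.21 with INTG, against 6.59, 7.16, 7.34 and 5.18 with NC1 and 6.72, 7.42, 7.13 and 5.56 with NC2. These overlapped, with a difference of -0.01 (95% interval -0.20 to 0.17, adjusted p = 0.925), and the second CXCL5 probe gave 0.24 (adjusted p = 0.369). Both upstream windows, CXCL6 and CXCL5, hold the NF-kB-like letters printed above, and the difference in response between these genes was not tested. The interferon-induced CXCL10 (0.07, adjusted p = 0.623) and CCL20 (0.06, adjusted p = 0.61) did not pass.

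CXCL16 read 9.50, 9.03, 9.68 and 9.79 with INTG, against 9.78, 10.04, 10.16 and 10.11 with NC1 and 9.96, 10.02, 10.28 and 10.13 with NC2. INTG was lowest in every experiment. CXCL16 fell by 0.56 (SE 0.0991, adjusted p = 0.00258). Its second probe was not detected.

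**Figure D3:**
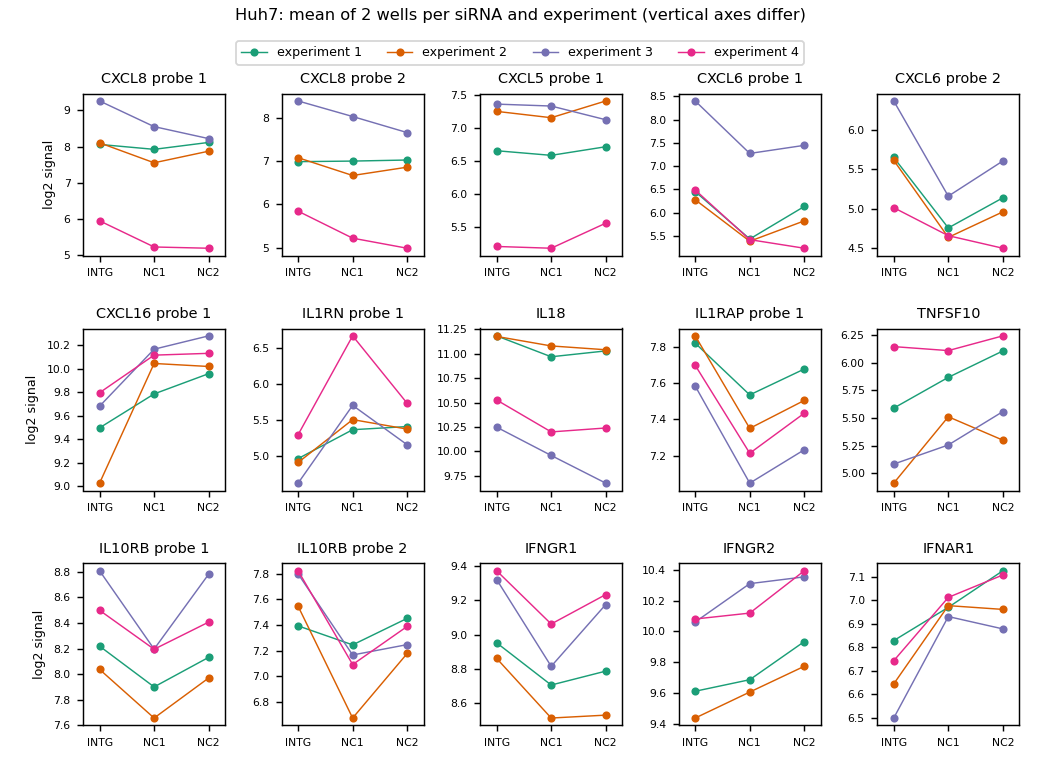
Log2 signal in Huh7 (vertical axes, which differ between panels) for INTG, NC1 and NC2, with 1 line per experiment and each point the mean of 2 wells, for the 14 probes that passed and for CXCL5 probe 1. CXCL6 is above both controls with INTG in all 4 experiments, CXCL16 below both, and CXCL5 overlaps.

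In the interleukin-1 and interleukin-18 family, 3 genes were tested in Huh7, and all 3 passed, 2 upward and 1 downward. Of all probes 22.3% passed. IL1RN read 4.97, 4.92, 4.63 and 5.30 with INTG, against 5.37, 5.51, 5.71 and 6.67 with NC1 and 5.41, 5.38, 5.16 and 5.73 with NC2. INTG was lowest in every experiment, but the probe was near the detection limit (the lowest detected level per array was 5.26 to 5.90). It was detected on 1 of 8 INTG, 6 of 8 NC1 and 3 of 8 NC2 arrays. The probe thus passed the filter through the controls, and the size of its fall is uncertain. IL1RN fell by 0.66 (SE 0.127, adjusted p = 0.00404). It was called against NC1 (-0.86, adjusted p = 0.00259) and missed the threshold against NC2 (-0.47, adjusted p = 0.0513). NC2 itself lay 0.39 below NC1 for this probe (adjusted p = 0.373).

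The interleukin-1 co-receptor IL1RAP read 7.82, 7.86, 7.58 and 7.70 with INTG, against 7.54, 7.35, 7.05 and 7.21 with NC1 and 7.68, 7.50, 7.23 and 7.43 with NC2. INTG was highest in every experiment, and IL1RAP rose by 0.37 (SE 0.0619, adjusted p = 0.00202). Its second probe gave 0.23 (adjusted p = 0.0966). IL18, a cytokine that induces interferon gamma, read 11.18, 11.18, 10.25 and 10.53 with INTG, against 10.97, 11.08, 9.96 and 10.20 with NC1 and 11.03, 11.04, 9.67 and 10.24 with NC2. INTG was highest in each experiment, and IL18 rose by 0.26 (SE 0.0746, adjusted p = 0.0286). It was not called against NC1 alone (0.23, adjusted p = 0.0864), and lost its call in 8 of 16 alternatives, among them each phase alone and without experiment 1, 3 or 4.

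The interferon receptors moved in different directions. IFNAR1, a chain of the type I receptor, read 6.83, 6.64, 6.50 and 6.74 with INTG, against 6.97, 6.98, 6.93 and 7.01 with NC1 and 7.13, 6.96, 6.88 and 7.11 with NC2, with no overlap between INTG and the controls. It fell by 0.32 (SE 0.0623, adjusted p = 0.00472). Its partner IFNAR2 gave -0.07 (95% interval -0.22 to 0.07, adjusted p = 0.466) on its first probe. The second IFNAR2 probe went the other way, with means of 7.14 with INTG and 7.02 with the controls, and did not pass. IFNGR1 read 8.95, 8.86, 9.32 and 9.37 with INTG, against 8.71, 8.51, 8.82 and 9.06 with NC1 and 8.79, 8.53, 9.18 and 9.23 with NC2. IFNGR2 read 9.61, 9.44, 10.06 and 10.08 with INTG, against 9.69, 9.61, 10.31 and 10.12 with NC1 and 9.93, 9.77, 10.35 and 10.39 with NC2. Of these chains of the type II receptor, IFNGR1 rose by 0.27 (SE 0.0668, adjusted p = 0.0138) and IFNGR2 fell by 0.22 (SE 0.0608, adjusted p = 0.022), and in every experiment INTG lay outside the pair of controls for each. IFNGR1 was not called against NC2 alone (0.19, adjusted p = 0.111), nor IFNGR2 against NC1 alone (-0.13, adjusted p = 0.217). IFNGR2 lost its call without any 1 of the 4 experiments, and IFNGR1 without experiment 1, 2 or 4.

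IL10RB, a chain shared by the receptors of interleukin-10, interleukin-22 and the lambda interferons, read 8.22, 8.04, 8.81 and 8.50 with INTG on its first probe, against 7.90, 7.66, 8.20 and 8.19 with NC1 and 8.13, 7.97, 8.78 and 8.41 with NC2. INTG was highest in each experiment, though close to NC2. IL10RB rose by 0.24 (SE 0.0688, adjusted p = 0.03) on its first probe. On the second it rose by 0.46 (SE 0.099, adjusted p = 0.00751). Against NC2 alone neither probe passed (0.07, adjusted p = 0.597, and 0.32, adjusted p = 0.0784), and the first lost its call without any 1 experiment and the second without experiment 4. TNFSF10 read 5.59, 4.91, 5.08 and 6.14 with INTG, against 5.87, 5.51, 5.26 and 6.11 with NC1 and 6.11, 5.30, 5.56 and 6.24 with NC2. It fell by 0.31 (SE 0.0912, adjusted p = 0.031), and INTG was below both controls in 3 of 4 experiments. TNFSF10 was detected on 4 of 8 INTG arrays, was not called against NC1 alone (-0.25, adjusted p = 0.121), and lost its call in 10 of 15 alternatives, among them median scaling, no background correction and without experiment 1, 2 or 3. The gp130 group gave no call in the fit reported. There IL6ST read 0.17 (95% interval 0.01 to 0.34, adjusted p = 0.127), OSMR 0.21 (adjusted p = 0.167) and IL6R -0.18 (adjusted p = 0.156). The second IL6R probe went the other way, with means of 5.21 with INTG and 5.10 with the controls, and was detected on 9 of 24 arrays. With median scaling IL6R probe 2, IL6ST probe 2 and OSMR passed upward, where 27.3% of all probes passed in either direction. IL6R probe 2 then also passed against both controls singly (13% of all probes). IL10 (0.28, adjusted p = 0.0955), IL32 (-0.06), MIF (-0.04), IL17RA (0.07), IL4R (-0.04) and IL13RA1 (0.13, adjusted p = 0.144) did not pass either.

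Against NC1 and NC2 singly and in the same direction, 6 of 33 member probes passed (CXCL6 with both probes, CXCL8 probe 1, IL1RAP probe 1, CXCL16 and IFNAR1), while 11.2% of all probes did. CXCL6 probe 2 is in this count through its INTG arrays, as said above. In 11 of 33 the INTG value was above NC1 and NC2, or below them, in every experiment, against 22.7% of all probes. Between the controls, NC2 against NC1, 0 of 33 passed in limma, and 0.476% of all probes did. At an unadjusted p of 0.05 it was 7 of 33 members and 9.68% of all probes. The INTG arrays were dimmer than the controls in 3 of the 4 Huh7 experiments, with ratios of mean signal of 1.02, 0.798, 0.738 and 0.819 in experiments 1 to 4. With mean array signal as a covariate 2 of the 14 calls were left, the 2 CXCL6 probes, of which the second passed the filter through its INTG arrays, and 3.83% of all probes passed in place of 22.3%. The log2 differences under that covariate included 1.00 for CXCL6, 0.38 for CXCL8, -0.45 for CXCL16, 0.28 for IL1RAP, -0.27 for IFNAR1 and -0.33 for IL1RN, against -0.66 for IL1RN without it. Without the experiment block 0 of the 14 and 2.4% of all probes passed, with the log2 differences unchanged by construction.

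Some markers of other cell types moved beside these calls in Huh7. All 7 hepatocyte markers were detected on all 24 arrays, and none passed. Of the 7 monocyte markers with a probe, CSF1R, ITGAM, MPO and SPI1 were detected on 0 arrays, CD14 fell by 0.76 and LYZ rose by 0.55. CD68 did not pass (-0.16, limma, adjusted p = 0.316). The mean log2 level of that list over experiments was 6.09 to 6.19 with INTG, 6.20 to 6.27 with NC1 and 6.13 to 6.28 with NC2. Of 5 fibroblast markers, LUM (0.41) and PDGFRB (0.44) rose and COL1A1 and DCN were detected on 0 arrays. COL1A2 was detected on all 24 arrays and did not pass (0.05, limma, adjusted p = 0.662). The list read 6.02 to 6.26 with INTG, 5.64 to 6.01 with NC1 and 5.92 to 6.12 with NC2. Against NC2 alone 0 of the 3 tested fibroblast markers passed, and against NC1 alone 2 did. The part of these markers in the results was not tested.

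Genes that act with the members also passed in Huh7. Among 11 tested genes of the JAK, STAT and SOCS list 2 rose and 3 fell, and the list's median was -0.04. For this and the next 3 lists the share over all probes is 10.3% upward and 12% downward. The kinase JAK1 fell by 0.52 (adjusted p = 0.00246) and STAT6 by 0.34 (adjusted p = 0.0153), while the feedback inhibitor SOCS2 rose by 0.48 (adjusted p = 0.00747) and PIAS1 by 0.41 (adjusted p = 0.00448). Among 7 genes of interleukin-1 receptor signalling 1 rose and 2 fell (median 0.01). TAB1, a partner of the kinase TAK1, fell by 1.06 (adjusted p = 2.4e-05) and the adaptor MYD88 by 0.36 (adjusted p = 0.00778), and MAP3K7, which encodes TAK1, rose by 0.25 (adjusted p = 0.0482). Among 7 further receptors IL17RC fell by 0.42 (adjusted p = 0.00471). Among 4 further cytokines GDF15 rose by 0.56 and KITLG by 0.30, and CX3CL1 fell by 0.44.

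In THP1, 0 of 36 member probes passed in limma with INTG, where 0.0444% of all 13524 probes passed. At an unadjusted p of 0.05 it was 7 of 36 members and 11.9% of all probes. Against both controls singly 0 of 36 passed, against 0.00739% of all probes, and between NC2 and NC1 0 of 36 passed (0 at an unadjusted p of 0.05), against 0% of all probes. The median log2 change was -0.08 over the member probes and -0.07 over all probes. With median scaling the median over all THP1 probes was 0.16, so small THP1 changes near it have no settled direction. INTG was outside the controls in the same direction in every experiment for 3 of 36 probes, IL1B, IFNAR1 and CCR2 probe 4, against 8.84% of all probes.

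IL1B, the main secreted interleukin-1, read 5.49, 5.43, 4.86 and 4.35 with INTG in THP1, against 5.84, 5.76, 5.70 and 5.84 with NC1 and 5.60, 5.64, 5.13 and 5.88 with NC2. INTG was lowest in every experiment, with a mean difference of -0.64 (SE 0.202, 95% interval -1.11 to -0.18, adjusted p = 0.352). It was detected on 4 of 8 INTG, 6 of 8 NC1 and 5 of 8 NC2 arrays. CCR2 probe 4 gave -0.28, -0.26, -0.25 and -0.26 in the 4 experiments (adjusted p = 0.28), whereas CCR2 probe 1 gave -0.22, -0.01, -0.05 and 0.07. IFNAR1 gave -0.18 (SE 0.0684, adjusted p = 0.394) in THP1, and IFNAR2 -0.27 (SE 0.0827, adjusted p = 0.35). CCL5 read 11.78, 11.95, 12.13 and 11.66 with INTG, against 11.84, 12.05, 12.17 and 12.30 with NC1 and 11.77, 12.08, 12.02 and 12.35 with NC2, which overlap.

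The other THP1 members gave no call. The homing receptor CXCR4 read 6.86, 6.99, 9.17 and 8.03 with INTG, against 6.98, 6.88, 8.86 and 8.61 with NC1 and 6.81, 6.97, 8.73 and 8.60 with NC2, and the fractalkine receptor CX3CR1 read 9.28, 7.63, 7.21 and 8.14 with INTG, against 9.32, 7.60, 7.55 and 8.32 with NC1 and 9.17, 7.56, 7.51 and 7.86 with NC2. Both varied between experiments by more than between siRNAs, with INTG differences of -0.04 (adjusted p = 0.885) and -0.05 (adjusted p = 0.793). Several of the rest depended on 2 dim INTG arrays of experiment 4. The gp130 ligand OSM gave -0.43 (adjusted p = 0.426) with these arrays and -0.13 without them, and IL6R gave -0.06 (adjusted p = 0.786) with them and -0.18 without. IL17RA gave -0.38 (adjusted p = 0.445) with them and -0.036 without, and IL1RAP 0.22 (adjusted p = 0.534) with them and 0.45 without. IL10 gave -0.04 with them and 0.35 (adjusted p = 0.337) without, IL18 -0.05 with them and 0.11 without, and IFNGR2 -0.21 (adjusted p = 0.396) with them and -0.11 without. MIF (-0.17, adjusted p = 0.382), IL6ST (0.16, adjusted p = 0.46), IFNGR1 (0.10, adjusted p = 0.46), IL4R (0.11) and IL10RB (-0.05) moved by less than 1.5 times. The second IL10RB probe went the other way, with means of 10.45 with INTG and 10.32 with the controls, and did not pass.

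**Figure D4:**
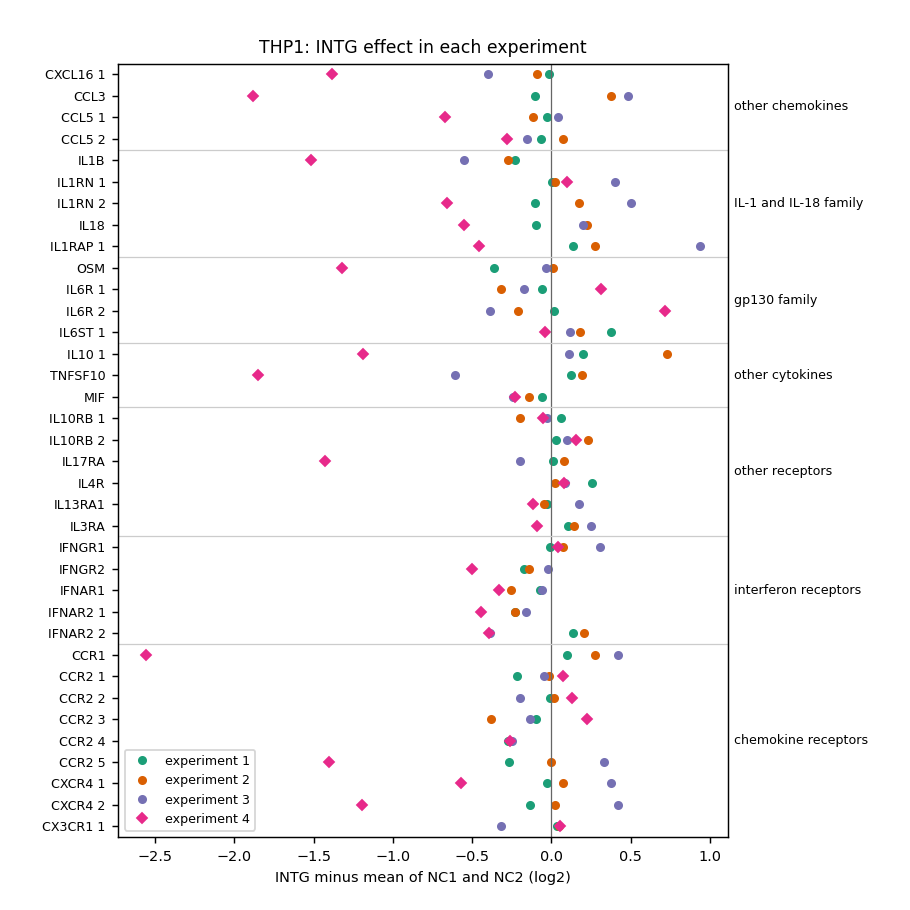
INTG minus control mean in THP1 on the log2 scale (horizontal axis), 1 point per experiment and probe, with experiment 4 as diamonds. Experiment 4 gave 10 values past 1 on the log2 scale in either direction, CCR1 at -2.56 the farthest, and the other 3 experiments gave 0.

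Experiment 4 of THP1 stood apart. Its INTG arrays had 0.462 of the control signal, against ratios of 0.983, 0.986 and 1.06 in experiments 1 to 3. For 23 of the 36 probes the lowest of the 4 effects was in experiment 4. The chemokine receptor CCR1 read 7.79, 7.25, 7.40 and 4.80 with INTG, against 7.71, 6.72, 6.82 and 7.31 with NC1 and 7.68, 7.23, 7.13 and 7.40 with NC2. The macrophage inflammatory chemokine CCL3 read 5.23, 5.51, 6.07 and 4.92 with INTG, against 5.18, 4.96, 5.54 and 6.74 with NC1 and 5.48, 5.31, 5.64 and 6.87 with NC2. Without the 2 dim arrays 10 of the 36 probes changed sign and 16 others moved by over 1.5 times. CCR1 gave -0.44 in the full set and 0.26 without them, and CCL3 gave -0.28 in the full set and 0.25 without them. CXCR4 gave -0.04 in the full set and 0.14 without them. Without the 2 arrays IL1B gave -0.35 (adjusted p = 0.25), TNFSF10 -0.10 against -0.53 in the full set, and still 0 of 36 probes passed (9 at an unadjusted p of 0.05). The mean log2 level of the monocyte markers per experiment was 7.20 to 8.25 with INTG, 7.96 to 8.28 with NC1 and 7.92 to 8.18 with NC2.

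The last comparison asked whether the INTG effect differed between the lines for the 20 member probes tested in both. Only IL1RN passed, 1 of 20, against 2.6% of all 11542 probes. Its effect was -0.66 in Huh7 and 0.13 in THP1, a difference of -0.79 (SE 0.178, 95% interval -1.17 to -0.41, adjusted p = 0.028). In THP1 it read 8.30, 8.26, 8.73 and 8.51 with INTG, against 8.33, 8.32, 8.18 and 8.58 with NC1 and 8.27, 8.16, 8.48 and 8.25 with NC2, far above its Huh7 level. In Huh7 the probe was detected on 1 of 8 INTG arrays and passed the filter through the controls, so the size of its fall there, and of this difference, is uncertain. The call was lost without experiment 1, 2 or 3 and with array brightness as a covariate. For CXCL16 the effects of -0.56 in Huh7 and -0.47 in THP1 differed by -0.09 (95% interval -0.59 to 0.41), and for IFNAR1 the difference was -0.14 (-0.31 to 0.04), so neither was shown to differ. In THP1 experiment 1 CXCL16 read 5.73 with INTG and 5.74 with the controls. The THP1 effect of CXCL16 was -0.09, -0.40 and -1.39 in experiments 2 to 4. Without the 2 dim arrays this effect averaged -0.17 and the difference between lines was -0.39 (limma, adjusted p = 0.127). IL10RB, with 0.29 (adjusted p = 0.109) and 0.33 (adjusted p = 0.162), did not pass. CXCL6 and CXCL8 were too dim in THP1 for this comparison. TAB1, outside the set, differed by -0.74 (adjusted p = 0.0047).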

How the data were processed

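Bead arrays were read in Huh7 and THP1 after INTG, NC1 or NC2 siRNA. The deposited intensity of a probe is its mean bead signal, per the file headers, and comes with a deposited detection p-value. The authors' processed table, also linear intensity, served only as an alternative. How it was made is not given in the sources used here beyond the tools lumi and limma, credited to the submitters' processing notes without versions. Mean signal per array lay between 240.6 and 396.8 in Huh7 and between 122.2 and 478.2 in THP1, and the number of arrays limits the precision.

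Signals were background corrected (normexp with detection p-values, offset 16), and quantile normalised over the 48 arrays by neqc of limma 3.58.1 (R 4.3.3), which returns log2 values. Wells were averaged (n = 4). Each line was fitted by limma with siRNA and experiment as terms on all probes detected at p under 0.01 on 8 of 24 arrays, and p-values were adjusted by Benjamini-Hochberg over all of them, with a threshold of 0.05. The experiment is the block because the series' design text gives each experiment its own culture passage; arrays of 1 experiment deviated together from their group means (correlations of 0.458 to 0.918). Each phase of a line was 1 slide. Within each experiment the arrays lay in the order NC1, NC2, INTG, so there position cannot be told apart from siRNA. Some positions held different siRNAs on different slides, and an effect of position was not tested. The joint fit compared the INTG effect between lines. Sequences were aligned with Biopython 1.88.

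Of 48803 probes 8 with blank values were left out, and 28098 carry 1 gene symbol, 13 several and 20692 none. Every member is named, and of the other pathway lists up to 4 called genes per list with the largest change. The members and lists were chosen with earlier results of these data known. The fits were tested on simulated data. Alternatives are given in the closing section. The targeted transcript's own level was not read.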

Additional observations from a re-analysis of the deposited data

Results flagged for a closer look

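The INTG effect in the 4 experiments was screened for a single distant value in 69 sets (33 member probes in Huh7 and 36 in THP1), and 3 sets (4.35%) held one, where chance gives about 1 in 20. In Huh7, IL10RB probe 2 read 0.045 in experiment 1, against 0.62, 0.59 and 0.58 in experiments 2 to 4. In THP1, CCR1 read -2.56 in experiment 4, on the dim INTG arrays, and its nearest other value was 0.10. CX3CR1 probe 1 in THP1 read -0.32 in experiment 3, with its nearest other value at 0.034.

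The INTG effect on IL1RN differed between the lines by -0.79 (Huh7 minus THP1, limma, adjusted p = 0.028). The probe was detected on 1 of 8 INTG arrays in Huh7, so the size of this difference is uncertain. It was lower than both controls in 4 of 4 experiments in Huh7 and in 0 of 4 in THP1.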

How the results depend on the processing

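The counts of called member probes depended on the model. Each called probe was refitted under 10 to 16 alternatives, and 0 values reversed. Changes of block, of detection filter or of well averaging leave the log2 difference as it was by construction, so they could not reverse it. The other alternatives reuse arrays on which the probes were called, so the directions were not tested independently. For the 14 INTG calls in Huh7, 84 of 218 values lost the call, for the IL1RN difference between lines 10 of 16, and for the control siRNA contrast between lines 10 of 438. For INTG against the mean of controls in Huh7 (14 calls) the count was 0 with no replicate block, that is without the pairing by experiment (2.4% of all probes, against 22.3% in the fit reported), 4 with the slide as the only block (8.16%), 8 on probes detected on all 24 arrays (29.5%), 2 with array brightness as a covariate (3.83%), 5 in the discovery phase (8.77%), 5 in the validation phase (5.89%), and 8 to 9 leaving out 1 experiment (12.7% to 18%). Against both controls singly there were 6 calls (11.2% of all probes). The count was 0 with no replicate block (1.02%), 1 with the slide block (3.38%) and 12 with wells as separate arrays (18.8%). It was 2 with brightness (1.48%), 1 in the discovery phase (2.75%) and 2 in the validation phase (2.08%). Leaving out 1 experiment gave 3 to 6 (5.15% to 7.65%). NC2 against NC1 in Huh7 (0 calls, 0.476% of all probes) gave 2 with separate wells (2.92%). It gave 1 each with no background correction (1.33%), the stricter filter (1.65%) and array weights (1.71%). INTG in THP1 (0 calls, 0.0444% of all probes) gave 3 with separate wells (4.04%) and 1 with array weights (1.92%). The difference between lines had 1 call (2.6% of all probes). It gave 0 with no replicate block (0.00866%), the slide block (0.503%), no background correction (3.64%) or brightness (0.511%). It also gave 0 in the discovery (0.399%) and validation (0%) phases. Separate wells gave 3 (11.7%), and leaving out 1 experiment gave 0 to 1 (0.199% to 2.4%). On all 24 arrays (8.27%) and with no detection filter (0.658%) the 1 call of this difference was another probe, IL10RB probe 1 and CXCL6 probe 2. Between lines with the control siRNAs 43 of 49 member probes passed (62.6% of all probes). The stricter filter left 9 member probes to test, of which 8 passed (59.9%). CXCL6 probe 1 lost its call only with no replicate block or the slide block (0.50 to 1.10 over settings), and CXCL16 only with no replicate block, brightness or the validation phase. Where not stated by the setting's construction, the cause was not tested. Dim probes such as IL1RN in Huh7 are limited by signal over background.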
